A study of Mus musculus with 14 samples.

Results

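Of the 20644 H3K4me2 regions of at least 800 bp listed for WT mouse liver, 833 (4.04%) shared no base with any H3K4me2 region listed for YAP transgenic liver, and these 833 long WT-only regions are described here. The other 19811 long WT regions overlapped a YAP region by at least 1 bp. The study profiled 2 histone marks and the enzyme LSD1 by chromatin immunoprecipitation and sequencing (ChIP-seq) in livers of YAP transgenic mice and of WT mice, both of the C57BL/6 strain. There were 2 libraries for every antibody in each genotype, and 1 input library from YAP and 1 from WT liver. YAP was induced in the liver with 50 mg/L doxycycline in the drinking water for 10 days. That treatment stands on the label of every library, WT included, and the labels do not say whether the WT mice drank it, nor which promoter drives the transgene, the sex or the age of the mice, or whether livers were pooled. Each antibody and genotype has 1 deposited list of regions that stands for both libraries, so no value here has a replicate error, no test between genotypes was possible, and a region that is not listed in YAP may still carry signal under the authors' limit. Intervals given with shares are 95% Wilson intervals, and those of differences are Newcombe intervals. They cover counting error among regions only, and neighbouring regions are not independent.

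H3K4me2 is the dimethylated form of lysine 4 on histone H3. It marks active and poised promoters and enhancers, and in differentiated cells it often extends over the bodies of the genes that give a tissue its identity. LSD1, encoded by Kdm1a, removes methyl groups from mono- and dimethylated lysine 4, usually as part of the CoREST complex with histone deacetylases, and it also binds at active enhancers and promoters. H3K4me1 is the form most common at enhancers. YAP is the transcriptional co-activator at the end of the Hippo pathway, which works through TEAD factors, and hepatocytes forced to express it lose features of mature hepatocytes. Liver is a mixture of hepatocytes, endothelial cells, macrophages and other cells, so that in chromatin of whole liver fewer cells of a type and less of the mark per cell cannot be told apart.

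The members were selected on the H3K4me2 lists alone. Among the promoters in the RefSeq table (assembly GRCm38.p6, which has the mm10 coordinates of the lists), 13 windows of protein-coding genes, each running from 250 bases before a gene's start to 50 bases after it, lay wholly inside a member. The 250 bases upstream of 4 of these starts are shown, because the regions at these genes, all of them liver genes, are among the 20 with the highest score. All 4 are written 5′ to 3′ on the strand of the gene. Capitals mark the letters TATAAA, the core of the TATA box, and GGAATG, the core of the TEAD motif, on either strand.
Mup3, chr4:62087318-62087567, minus strand: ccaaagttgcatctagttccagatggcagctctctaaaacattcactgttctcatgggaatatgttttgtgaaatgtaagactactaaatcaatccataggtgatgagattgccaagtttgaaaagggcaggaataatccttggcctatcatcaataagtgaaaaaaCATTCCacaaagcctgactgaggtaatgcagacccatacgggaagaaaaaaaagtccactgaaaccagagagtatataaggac
Slco1a1, chr6:141946963-141947212, minus strand: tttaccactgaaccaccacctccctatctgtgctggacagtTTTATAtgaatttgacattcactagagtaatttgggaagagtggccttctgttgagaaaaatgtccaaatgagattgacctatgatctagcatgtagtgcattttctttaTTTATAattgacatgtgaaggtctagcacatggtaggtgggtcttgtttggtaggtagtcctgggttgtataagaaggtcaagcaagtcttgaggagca
Hsd3b5, chr3:98645535-98645784, minus strand: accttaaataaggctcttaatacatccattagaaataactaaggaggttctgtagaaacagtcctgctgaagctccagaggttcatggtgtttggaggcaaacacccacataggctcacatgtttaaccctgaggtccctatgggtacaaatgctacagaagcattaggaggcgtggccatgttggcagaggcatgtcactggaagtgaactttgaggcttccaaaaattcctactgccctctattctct
Ces3b, chr8:105083505-105083754, plus strand: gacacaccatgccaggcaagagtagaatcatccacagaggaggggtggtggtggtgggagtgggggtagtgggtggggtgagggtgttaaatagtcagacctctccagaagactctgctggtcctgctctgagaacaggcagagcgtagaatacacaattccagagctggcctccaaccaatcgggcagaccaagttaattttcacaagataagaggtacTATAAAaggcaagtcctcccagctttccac

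Mup3 encodes a major urinary protein, Slco1a1 an uptake transporter for bile acids and steroid conjugates, Hsd3b5 a steroid-reducing hydroxysteroid dehydrogenase and Ces3b a carboxylesterase. The Ces3b window lies in a member of score 228 (chr8:105081607-105084316), and the gene's other member scored 333. The GGAATG letters stood on the minus strand of the printed Mup3 sequence, with the first base at position -83 from the start. TATAAA stood at position -30 on the plus strand at Ces3b and at positions -209 and -99 on the minus strand at Slco1a1. Neither was found in the Hsd3b5 window, nor were the other motifs searched on both strands, which were CAAAGTCCA (HNF4A), TGTTTAC (FOXA), TTGCGCAA (C/EBP), TTCNNNGAA (STAT5) and the palindromes of HNF1 and NFI. TATAAA was present in 4 of the 13 windows inside members, against 7.07% of 3438 windows inside long WT regions that overlapped YAP and 11.6% of all 21262 windows. GGAATG was present in 2 of the 13, against 12.1% and 11.7%. A match was counted at any position and on either strand, so the letters TATAAA need not form a TATA box. The median GC content was 46.8% in the 13 windows inside members, against 59.2% in windows inside the overlapping regions, and the median number of CG dinucleotides was 2 against 14. These promoters were thus poorer in CG than those under the regions listed in both genotypes, although 13 windows give a coarse estimate. No match in a window says only that these letters are not there.

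The members covered 1.03 Mb in all. Their median length was 1032 bp (range 800 to 7386), against 1600 bp for long WT regions that overlapped YAP. The authors' score equals 10 times the deposited −log10 p, rounded down, in all 51676 YAP and 54219 WT regions. Its median was 72 among members (range 20 to 416) and 208 among overlapping regions. As a set the members were therefore shorter and lower than the regions listed in both genotypes, but 30 of them scored 200 or more. The reverse set, 568 long YAP regions with no WT overlap among 19970 long YAP regions, had a median score of 83 and a median length of 1038.5 bp.

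**Figure D1:**
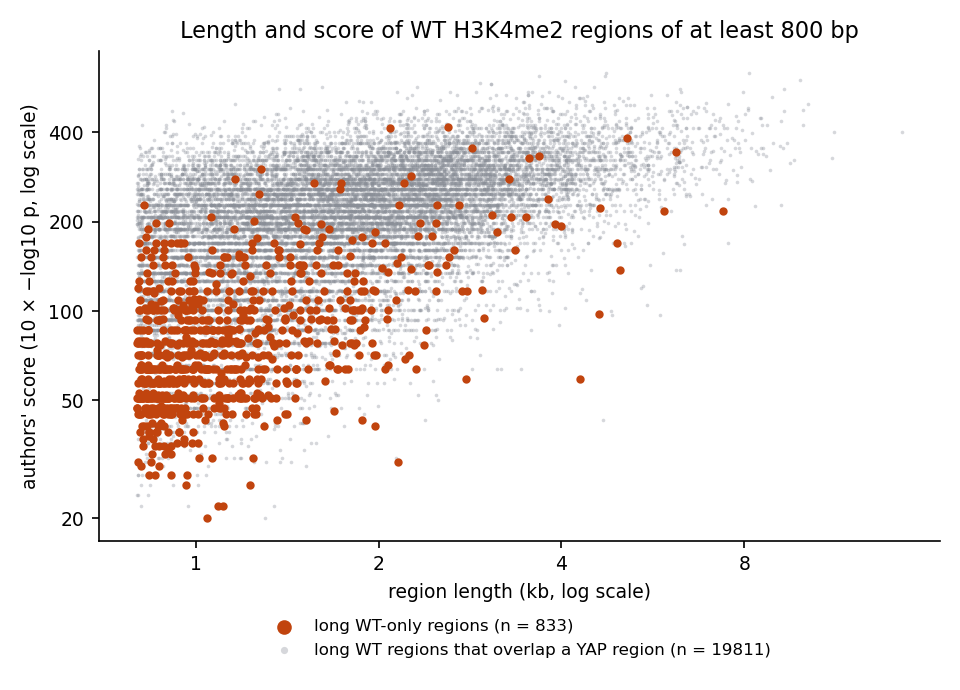
Length (kb, horizontal) and authors' score (vertical, both on log scales) of each WT H3K4me2 region of at least 800 bp. The 833 long WT-only regions lie mostly at low scores around a median of 72, with a few at 200 to 416 among the 19811 overlapping regions, whose median is 208.

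The nearest YAP H3K4me2 region lay a median of 1422 bases away. For 248 members (29.8%) it lay at less than 500 bases and for 66 (7.92%) at 50000 bases or more. The members far from any YAP region were higher (median score 97) than those beside one (median score 64). At the length limit, the 27 members less than 10 bp above it had a median score of 57 and the 30 WT-only regions at most 10 bp below it one of 64. Just inside it were regions at Hes1 and Hsd17b6 (800 bp each), and just outside it regions at Qdpr (797 bp) and Rhoa (798 bp). At the overlap limit, 30 members had a YAP region within 100 bases, while 12 long WT regions were left out for an overlap of 1 to 100 bases.

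The members lay inside genes far more often than at their ends. A gene end is taken here as 1 kb on both sides of a protein-coding gene's boundary. Only 116 members (13.9%, interval 11.7 to 16.4) overlapped one, against 12737 overlapping regions (64.3%, 63.6 to 65.0), a difference of -50.4 percentage points (-52.7 to -47.8). Of the members 571 (68.5%) lay inside a gene away from its ends, against 27.2% of the overlapping regions, and 146 (17.5%) lay between genes, against 8.49%. Gene ends took 23.8% of the long YAP-only regions (135 of 568), so that both genotype-specific sets lay away from gene ends, the WT-only one by 9.84 points more (interval of the difference -14.1 to -5.68). The lower share at gene ends was also present among regions of like score. In the class of scores 50 to 99 it was 11.9% of 469 members and 28.1% of 2473 overlapping regions, and among scores of 200 or more 33.3% of 30 members and 77.5% of 10382. Among regions of 800 to under 1200 bp it was 12.1% of members and 48.5% of overlapping regions.

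**Figure D2:**
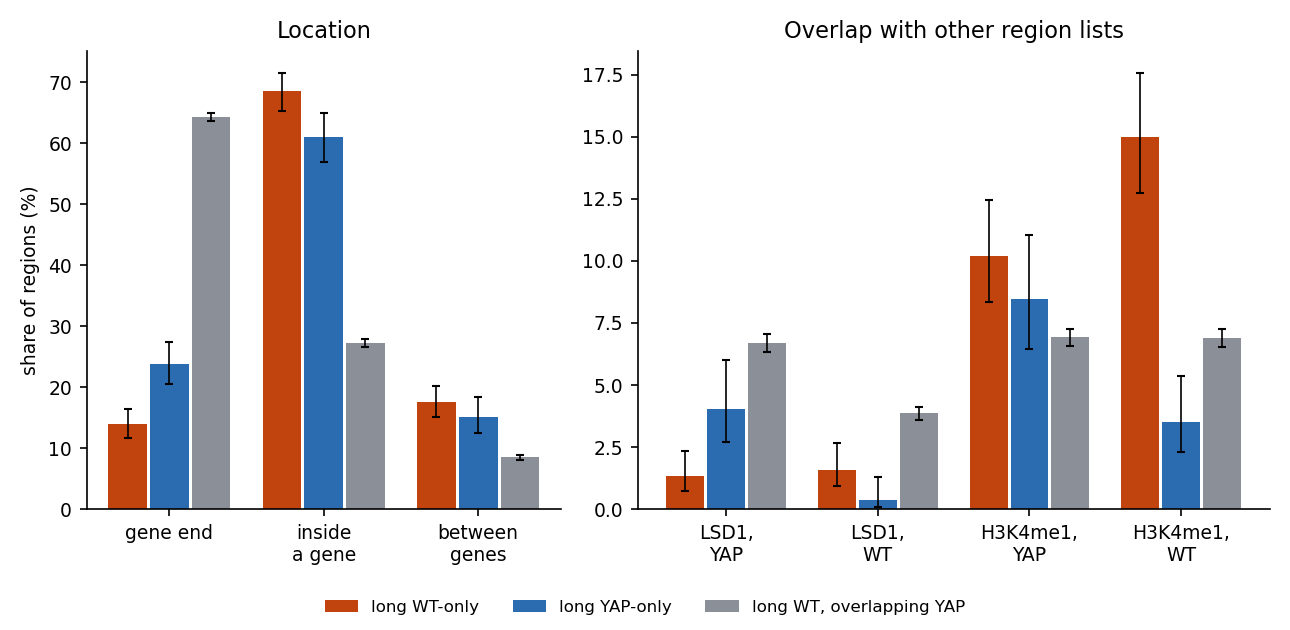
Share of regions (%, bars) by location (left) and by overlap with an LSD1 or H3K4me1 region of the named genotype (right), with 95% Wilson intervals, for 833 long WT-only, 568 long YAP-only and 19811 overlapping long WT regions. Long WT-only regions stand at 13.9% at gene ends and 68.5% inside genes, and at 1.32% (YAP) and 1.56% (WT) for LSD1.

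Where members did lie at a gene end, it was often not the end at which the gene starts. With the gene's direction read from the promoter table, 55 of the 116 lay at the start boundary only and 33 (28.4%) at the far boundary only, against 9259 and 345 (2.71%) of the 12737 overlapping regions. For 25 of the 116 the direction was not in the table. The starts of 79.9% of protein-coding genes are in it, so these counts are partial. Between protein-coding genes, 69 of 146 members (47.3%, 39.3 to 55.3) overlapped another gene of the RefSeq table, against 45.1% of the overlapping regions there (42.7 to 47.5), which is within the interval.

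LSD1 was rarely listed on the members in either genotype. In YAP livers 11 members (1.32%, 0.739 to 2.35) overlapped an LSD1 region, against 1325 overlapping regions (6.69%, 6.35 to 7.04). In WT livers 13 members (1.56%, 0.914 to 2.65) did, against 764 overlapping regions (3.86%, 3.60 to 4.13). Of the 568 long YAP-only regions, 23 (4.05%, 2.71 to 6.00) overlapped LSD1 in YAP livers and 2 (0.352%, 0.0966 to 1.27) in WT livers. The members' share was lower than theirs in YAP (difference -2.73 points, -4.77 to -1.04) and higher in WT (1.21 points, 0.0821 to 2.33). The YAP LSD1 list has 2949 regions after joining overlaps and the WT list 1500, a difference of the whole lists. Among members, 10 had LSD1 in YAP livers alone, 12 in WT livers alone, 1 in both and 810 in neither. Among overlapping regions YAP-only LSD1 (1054) was more frequent than WT-only LSD1 (493). The 2 genotypes were thus about even on members, with the longer YAP list giving no larger count there. With the YAP LSD1 list cut to its 1500 highest regions, the size of the WT one, LSD1 overlapped 7 members (0.840%, 0.408 to 1.72) in YAP and 13 (1.56%) in WT.

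The LSD1 shares were also compared among regions of like score. At scores 20 to 49, LSD1 in YAP livers overlapped 2 of 116 members (1.72%) and 0 of 265 overlapping regions, a difference of 1.72 points (-0.174 to 6.07). At scores 50 to 99, LSD1 in YAP livers overlapped 4 of 469 members (0.853%, 0.332 to 2.17) and 1.62% of overlapping regions (1.19 to 2.19), and LSD1 in WT livers 5 of 469 members (1.07%) and 0.607% of overlapping regions (0.368 to 0.998). At scores from 100 to under 200 LSD1 in YAP livers overlapped 5 of 218 members (2.29%) and 5.43% of overlapping regions, a difference of -3.13 points (-4.56 to -0.125), and LSD1 in WT livers 6 of 218 members (2.75%) and 3.26% of overlapping regions (difference -0.506 points, -2.06 to 2.64). At scores of 200 or more LSD1 in YAP livers overlapped 0 of 30 members, which allows a share of up to 11.4% by the Wilson interval, and 8.88% of overlapping regions, a difference of -8.88 points (-9.44 to 2.48). Within score classes the interval of the difference thus lay below 0 only for LSD1 in YAP at scores from 100 to under 200, and elsewhere a difference was not detectable with these numbers of regions. Among regions of like length, 800 to under 1200 bp, LSD1 in YAP overlapped 1.42% of members and 5.26% of overlapping regions, and LSD1 in WT 1.42% and 2.95%. At 2000 bp and longer LSD1 in YAP overlapped 0 of 63 members and 8.20% of overlapping regions, while LSD1 in WT overlapped 3 of 63 members (4.76%) and 4.74% of overlapping regions, so that the lower WT share was not seen in that class. Within 5 kb of a member there was LSD1 in YAP at 84 (10.1%, 8.22 to 12.3), against 14.0% of overlapping regions (13.5 to 14.5), and LSD1 in WT at 56 (6.72%, 5.21 to 8.63), against 7.75% (7.39 to 8.13). Within 50 kb LSD1 in YAP lay at 33.9% of members and 33.6% of overlapping regions, and LSD1 in WT at 24.8% of members (22.0 to 27.9) and 19.9% of overlapping regions (19.3 to 20.4), the higher share being that of the members.

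**Figure D3:**
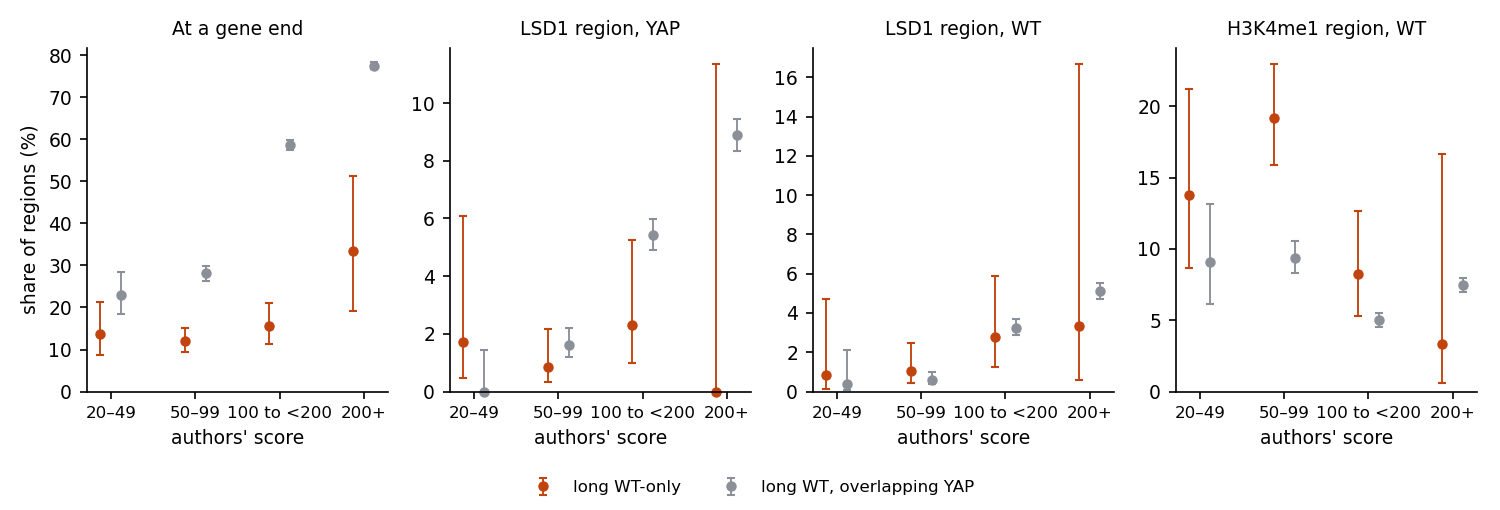
Share of regions (%, points with 95% Wilson intervals) at a gene end, with an LSD1 region in YAP or in WT, and with an H3K4me1 region in WT, by class of the authors' H3K4me2 score, for long WT-only regions and long WT regions that overlap YAP. At gene ends members stand lower in each class (11.9% against 28.1% at scores 50 to 99), while the LSD1 intervals overlap in most classes.

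The members with LSD1 in YAP livers mostly lay close to H3K4me2 that was listed there. A YAP H3K4me2 region lay less than 500 bases from 248 (29.8%) of all 833 members. It did so for 3 of the 13 with LSD1 in WT livers and for 7 of the 11 with LSD1 in YAP livers. The highest were at Cnot8, a subunit of the CCR4-NOT deadenylase complex (chr11:58093745-58095621, score 178), where 197 bases of the LSD1 region lay on YAP H3K4me2, at an end of 2010003K11Rik (chr19:4497928-4499230, score 143), 9326 bases from the nearest YAP H3K4me2, and at Csrp3, a LIM protein (chr7:48842687-48843625, score 117). Others lay near Fgb, the fibrinogen beta chain (chr3:83038012-83038981, 3264 bases from the gene), and inside Got1, the cytosolic aspartate aminotransferase (chr19:43514251-43515217), Rps6kc1, Rbpms (by 1 base only) and Rhobtb1, at Slc29a1, a nucleoside transporter, and near Cntrl.

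WT livers had LSD1 on members at liver enzymes and transporters among other genes. In WT livers LSD1 was listed on the member inside Sult2a8, a bile acid sulfotransferase (chr7:14433491-14438622, score 383), with an LSD1 region of score 756. It was also listed on members inside Slc7a2, a cationic amino acid transporter, inside Lpcat3, a phospholipid-remodelling acyltransferase, and inside Rgn, regucalcin. Slc22a7, an organic anion transporter, had a WT LSD1 region on its only member (chr17:46437266-46438465) and no H3K4me2 region within 5 kb in YAP. All 13 WT LSD1 regions on members had 0 bases on YAP H3K4me2, which the choice of members favours. The 1 member with LSD1 in both genotypes lay inside Agpat2, an acyltransferase of triglyceride synthesis (score 28).

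H3K4me1 was more frequent on members than on overlapping regions, in WT most of all. In YAP livers 85 members (10.2%, 8.33 to 12.4) overlapped an H3K4me1 region, against 6.92% of overlapping regions (difference 3.29 points, 1.38 to 5.56). In WT livers 125 members (15.0%, 12.7 to 17.6) did, against 6.88% (difference 8.13 points, 5.83 to 10.7). Of the long YAP-only regions 48 (8.45%) overlapped H3K4me1 in YAP livers and 20 (3.52%) in WT livers. From these the members differed by 1.75 points (-1.43 to 4.77) in YAP and 11.5 points (8.56 to 14.3) in WT. In both genotype-specific sets H3K4me1 was thus listed more often in the genotype that lists the region. The H3K4me1 lists are of like size, with 6274 regions in YAP and 5905 in WT. Inside genes the shares in YAP were 13.3% of members and 12.9% of overlapping regions, and in WT 20.3% and 12.9% (differences 0.458 points, -2.25 to 3.61, in YAP and 7.41 points, 4.18 to 11, in WT). Between regions inside genes a difference was thus seen for WT H3K4me1 and not detectable for YAP H3K4me1. H3K4me1 was listed on 43 members in YAP alone, on 83 in WT alone and on 42 in both genotypes. H3K4me1 on members was mostly inside genes, with 116 of the 125 WT cases there. Among scores 50 to 99 it was 19.2% of members and 9.38% of overlapping regions in WT, but among scores of 200 or more 1 of 30 members had it, against 7.45%. At the lowest scores, 20 to 49, YAP H3K4me1 was less frequent on members (6.03%) than on overlapping regions (15.1%).

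Within 5 kb of a member lay 679 protein-coding genes, 5.39% of the 12609 that had any long WT region there. Of these 579 had 1 member, 75 had 2 and 25 had 3 or more. Most members, 584 of the 833, had no other member within 20 kb. The others lay in clusters, of which the 25 with 3 or more held 97 members. The genes with a member were longer (median 36.4 kb) than the other genes with a long WT region (22.5 kb).

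The largest run lay inside Ttc39c, a tetratricopeptide repeat gene (chr18:12583103-12739404), where 9 members covered 26.3 kb. Counted over the gene and 5 kb on each side, H3K4me2 covered 8.51 kb in YAP and 39.9 kb in WT. Sult2a8 had 6 members and 0.837 kb of H3K4me2 in YAP against 13.7 kb in WT. The covered length is a description, since the choice of members used the same lists.

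Among the other genes with most members, Cps1, the entry enzyme of the urea cycle (5 members), had 7.75 kb of H3K4me2 in YAP and 15.5 kb in WT. Ppara, the fatty acid receptor that turns on fatty acid oxidation (5 members), had 16.0 kb in YAP and 29.3 kb in WT. Cmah, an enzyme of sialic acid metabolism, had 3.56 kb in YAP and 14.5 kb in WT. Of the 5 genes with 4 members, the 4 with most member bases are given. They were Mtss1, an actin regulator, A1cf, the cofactor of apolipoprotein B mRNA editing, Slc7a2 and Upp2, a uridine phosphorylase of liver. H3K4me2 covered 6.38 to 11.2 kb at them in YAP and 18.5 to 27.4 kb in WT. At these 9 genes the mark was thus listed in both genotypes, with part of the WT length not listed in YAP.

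At 44 of the 679 genes no H3K4me2 region at all was listed in YAP within 5 kb of the gene. By covered length in WT the first were Cyp2e1 (8.14 kb), the ethanol-oxidising cytochrome P450, Ces3b (7.67 kb), Slco1a1 (6.88 kb), Cyp2c29 (5.37 kb), Ces1f (5.02 kb), Orm1 (3.85 kb), an acute-phase plasma protein, and Hsd3b5 (3.72 kb). Cyp2e1 had 3 members within 5 kb, of which the longest (chr7:140763924-140768863, 4.94 kb, score 170) ran from just inside the gene's start into it, and the nearest YAP region was 42741 bases away. For the 3 members at Cyp2c29 the nearest YAP region was at least 217739 bases away. Hoxb2, Hand2 and Gdnf, known from embryonic development, were also among the 44, each with 1 member.

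**Figure D4:**
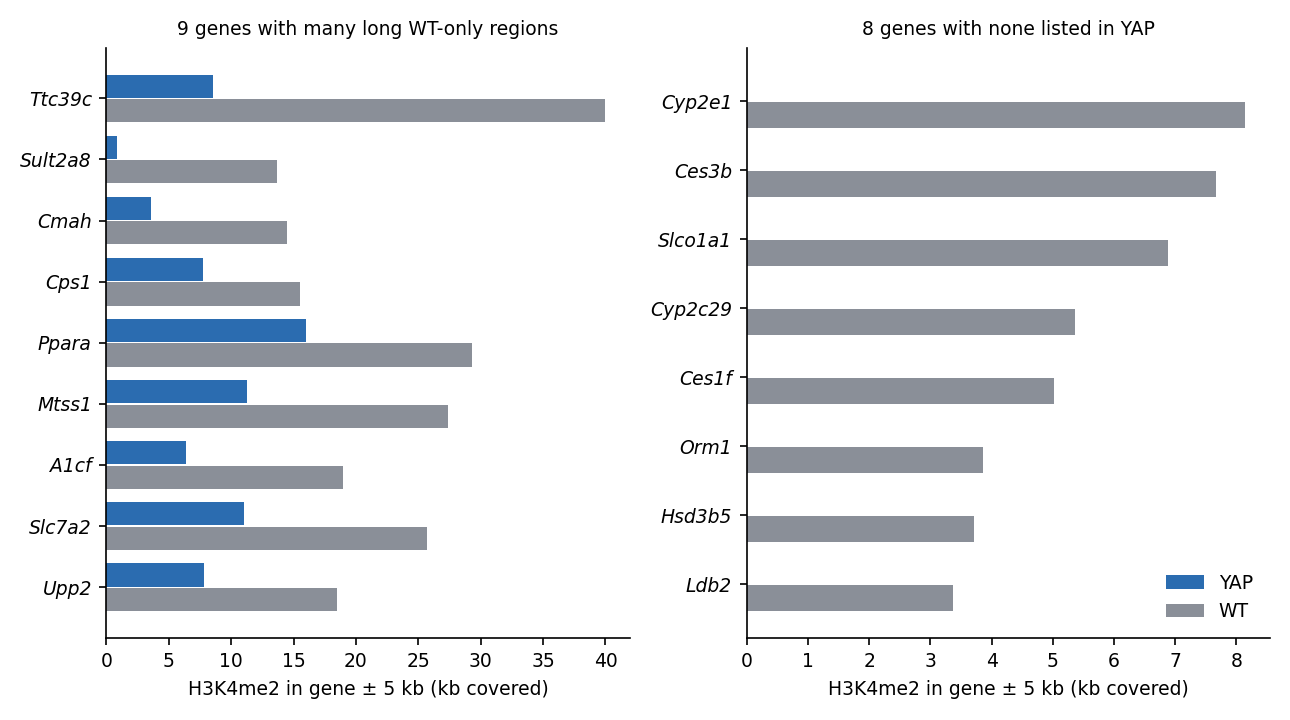
H3K4me2 covered (kb) in the gene and 5 kb on each side, YAP above WT, for 9 genes among those with most long WT-only regions (left) and the first 8 genes with a member and no listed YAP H3K4me2 (right, no YAP bar). Ttc39c shows 8.51 kb in YAP and 39.9 kb in WT.

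The members with the highest scores lay at gene ends, inside genes and between genes. The first was at the start of Mup3 (chr4:62085505-62088107, score 416), 121 bases from a YAP region. The second lay between genes, 26315 bases from the nearest, Sult2a7 (chr7:14519339-14521424, score 413), 79673 bases from a YAP region, and the third was the Sult2a8 member above (score 383). Then came a member between genes, 29950 bases from Ugt2b38, a UDP-glucuronosyltransferase (score 355), and those at Slco1a1 (chr6:141941308-141947471, score 344), Ces3b (chr8:105084434-105088109, score 333) and Hsd3b5 (chr3:98643528-98647069, score 328). Shld2 and Shld1, both of the shieldin complex of DNA repair, had members of score 285 and 258 inside them, and Wfdc21, a whey acidic protein family gene, one of 269. Ces1f and Orm1 also had members of score 269, and members of 279 lay 5894 bases from Cps1 and 18427 bases from Ugt2b1, also a UDP-glucuronosyltransferase. A member of 301 lay 67836 bases from its nearest gene, 3110040M04Rik. None of the first 15 by score had an LSD1 region in YAP, and 1, at Sult2a8, had one in WT.

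By length the members of Ttc39c (7.39 kb) and Slco1a1 (6.16 kb) came first, followed by Ces3a (5.89 kb), Sult2a8 (5.13 kb), Acsm1, a medium-chain acyl-CoA synthetase (4.99 kb), and Cyp2e1 (4.94 kb). The member inside Acsm1 was the only one of the 10 longest with H3K4me1, listed in both genotypes. A 4.63 kb member lay 96586 bases from Bcl6, a repressor gene, and a 4.61 kb one 16807 bases from Serpina5. Some of the genes named here and above, such as those of the Mup, Sult2a, Ces and Ugt2b families, belong to families of close copies. Aligned reads can be divided among such copies, so the levels of these genes are uncertain.

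Gene lists for functions of liver were set beside the members as counts and shares, with no test. The lists share genes, such as Cps1, Asl, Oat, Ppara, Nr1h4 and Slco1a1, so the same members are counted under more than 1 list. Because the choice of members fixes their direction, the counts show where the set lies, not a direction. Of all 19310 long WT regions within 5 kb of a protein-coding gene, 726 (3.76%) were members. Near the 42 genes of urea cycle and amino acid breakdown with a long WT region, 22 of 112 long regions were members (19.6%, 13.3 to 28.0), at 11 genes, among them Cps1, Oat, the ornithine aminotransferase (1.46 kb of H3K4me2 in YAP and 4.15 kb in WT), and Asl, the argininosuccinate lyase (4.34 kb in YAP and 8.63 kb in WT). Near bile acid genes 11 of 70 were members (15.7%), among them regions at Slco1b2, a hepatocyte uptake transporter, Scp2, a sterol carrier, and Nr1h4, the bile acid receptor FXR (11.8 kb in YAP and 20.8 kb in WT).

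Coagulation and complement genes had 12 members among 94 long regions (12.8%), at Fgb, Plg, the plasminogen gene, C4b and Serpind1 first. Fatty acid oxidation and ketone genes had 11 of 90 (12.2%), at Ppara, Slc27a2, a fatty acid transporter, Cpt1a, the carnitine palmitoyltransferase that admits fatty acids to mitochondria, Acsl1 and Crot. Secreted plasma protein genes had 9 of 90 (10.0%), at Orm1, Ttr, Ahsg and Apoa4 first, and hepatocyte transcription factor genes 14 of 154 (9.09%), at 7 of 29 genes. These were Ppara, Nr1h4, Nfix, Nr5a2, Onecut1, Xbp1 and Hnf4a, and each kept listed H3K4me2 in YAP, from 4.06 kb at Xbp1 to 18.2 kb at Nr5a2. With a minimum length of 500 bp 15 of these genes had a member, and with one of 1500 bp none had. Glucose handling (6 of 89, 6.74%) and lipid and sterol synthesis (7 of 119, 5.88%) had shares whose intervals include 3.76%.

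Genes of both ends of the liver lobule held members. Periportal genes had 18 members among 64 long regions (28.1%, 18.6 to 40.1), at 11 of 26 genes, and pericentral genes 13 of 52 (25%, 15.2 to 38.2), at 7 of 25 genes. Of the 18 periportal members, 5 lay at Cps1 and 4 at Slc7a2, and such neighbours are not independent, so the interval is too narrow. With a minimum length of 1500 bp 3 periportal genes had a member. The periportal ones were led by Cps1, Slc7a2, Cyp2f2, a lung and liver cytochrome P450 (2.68 kb in YAP and 5.68 kb in WT), and Asl. The pericentral ones were led by Cyp2e1, Cyp2c29, Cyb5a, cytochrome b5 (10.6 kb in YAP and 20.4 kb in WT), and Oat. Glul, the glutamine synthetase gene of the innermost pericentral hepatocytes, had no member.

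Of the enzyme and transporter families, carboxylesterases had 7 members among 14 long regions (50.0%, 26.8 to 73.2), at 5 of 10 genes. Cytochrome P450 genes had 15 of 70 (21.4%, 13.4 to 32.4), at 10 of 43 genes, sulfotransferases 6 of 15, all at Sult2a8, and major urinary protein genes 3 of 4. The uncertainty from close copies given above holds for these counts. Of the 22 major urinary protein genes, 19 had no H3K4me2 region listed in WT. Smaller counts fell to genes of UDP-glucuronosyltransferases (3 of 21), SLCO transporters (2 of 7), SLC22 transporters (2 of 20), ABC transporters (4 of 79), serpins of clade A (2 of 11) and hydroxysteroid dehydrogenases (3 of 24). None was at glutathione S-transferase (0 of 27), aldehyde dehydrogenase (0 of 29), aldo-keto reductase (0 of 19) or acyl-CoA thioesterase genes (0 of 21). With so few regions a count of 0 allows shares of up to 11.7% to 16.8%. Members at cytosolic ribosomal protein genes were 0 of 157, with an upper bound of 2.39%, and at cell cycle genes 0 of 48, with one of 7.41%. Low regions were few there, while the median score of members was 72. Of the 157 regions 9 scored under 100, and of the 48 regions 3, against 3066 of 19310 near all protein-coding genes. The ribosomal protein genes were also short (median 3.17 kb, against 23.3 kb for all genes). Whether these 0 counts go beyond score and gene length was not tested.

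**Figure D5:**
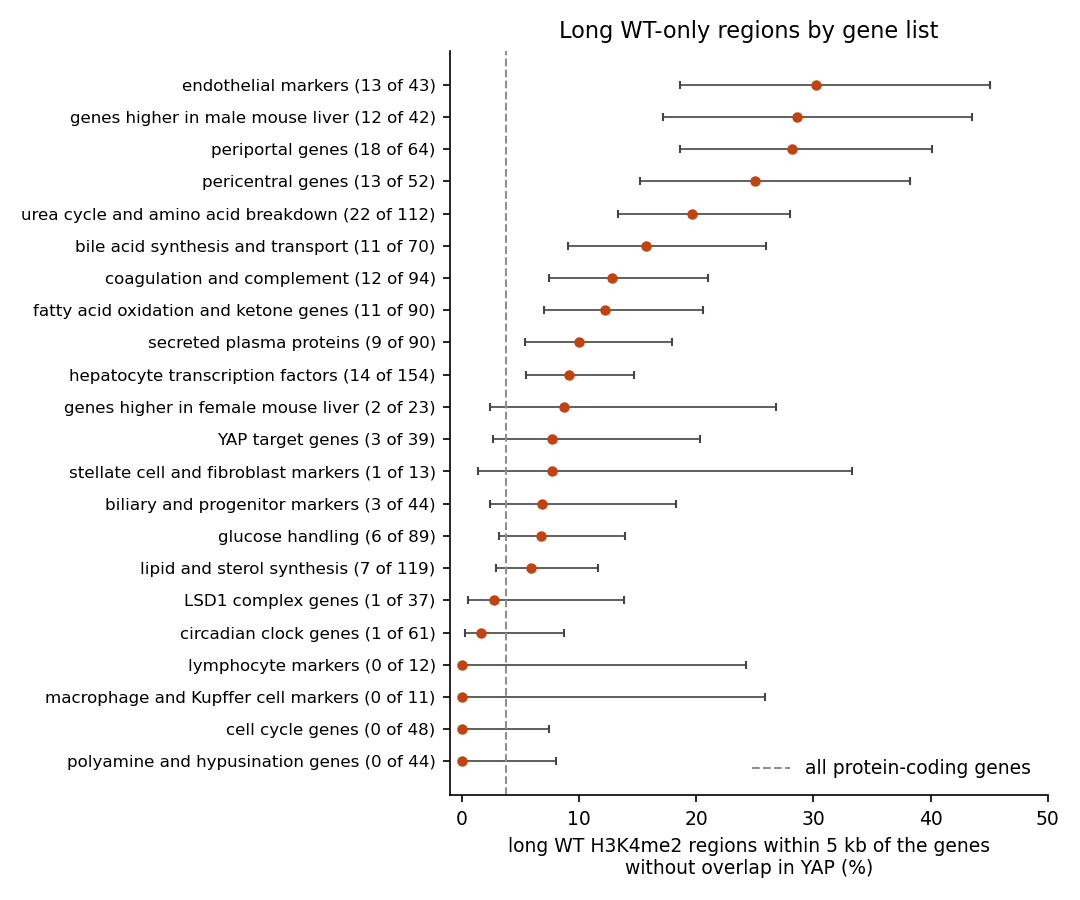
Share of long WT H3K4me2 regions within 5 kb of the genes of each list that have no overlap in YAP (%, points with 95% Wilson intervals, counts in brackets), with the share for all protein-coding genes, 3.76%, as a dashed line. Endothelial, male-biased, periportal and pericentral lists stand highest, at 30.2%, 28.6%, 28.1% and 25%.

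Of the 22 lists, that of endothelial cell markers had the largest share, with 13 members among 43 long WT regions (30.2%, 18.6 to 45.1), at 10 of 16 genes. All 13 lay inside a gene. The 10 genes, all named here after the count was seen, were the transcription factor genes Erg (2 members, 0.373 kb of H3K4me2 in YAP and 2.83 kb in WT), Ets1 (11.9 kb in YAP and 20.9 kb in WT) and Gata4 (12.2 kb in YAP and 28.0 kb in WT), the receptor genes Eng (1.62 kb in YAP and 6.81 kb in WT) and Tek (none listed in YAP and 1.48 kb in WT), the sinusoidal genes Oit3 and Ehd3, and Egfl7, Dll4 and Bmp2. The member at Egfl7 is the one inside the neighbouring gene Agpat2 with LSD1 in both genotypes. Long WT regions near these genes were low, with a median score of 86 against 208 near all protein-coding genes. Among those scored under 100, 12 of 25 (48.0%) were members, against 17.3% of the 3066 near all genes. In that class the endothelial list did not stand first. The share was 5 of 7 (71.4%) for male-biased genes and 17 of 27 (63.0%) for urea cycle and amino acid genes. It was 14 of 23 (60.9%) for periportal and 5 of 9 (55.6%) for pericentral genes.

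Endothelial genes did not all go the same way. Over all 29 endothelial markers with listed H3K4me2, the covered length was shorter in YAP at 17 and longer at 12, and their summed length was 81.3 kb in YAP and 125 kb in WT. Genes with more in YAP included Stab2, a sinusoidal scavenger receptor (4.71 kb in YAP and 2.16 kb in WT), and Cdh5, the adhesion protein of endothelial junctions (0.798 kb in YAP, no region in WT), while Lyve1 had none listed in either. Macrophage markers had no member (0 of 11 long regions, upper bound 25.9%). All 19 of them with listed H3K4me2 had more in YAP, with a summed length of 55.2 kb in YAP and 26.0 kb in WT, and the Kupffer cell marker Clec4f had 1.02 kb in YAP with no WT region, while Vsig4, Marco and Cd163 had none in either. Stellate cell and fibroblast markers had 1 member, at Hand2 (25.5 kb in YAP and 39.7 kb in WT over 30 genes), lymphocyte markers none (28.7 kb in YAP and 22.3 kb in WT), and biliary and progenitor markers 3, at Onecut1, Slc4a2 and Hes1 (108 kb in YAP and 96.6 kb in WT). Genes with more or less covered length in YAP were not counted over all protein-coding genes, so these counts have no share beside them. The part of these cell types in the set was not tested.

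Genes with higher expression in livers of male mice had 12 members among 42 long WT regions (28.6%, 17.2 to 43.6), at 10 of 23 genes, and genes higher in females 2 of 23 (8.70%, 2.42 to 26.8), one of these at Prlr, the prolactin receptor gene. The male-biased ones with most member bases were Slco1a1, Mup3, Hsd3b5 and Egfr, the epidermal growth factor receptor (19.1 kb in YAP and 30.5 kb in WT). Over all genes of each list with listed H3K4me2, H3K4me2 was shorter in YAP at 26 of 27 male-biased genes and longer at 1, whereas it was longer in YAP at 18 of 27 female-biased genes and shorter at 9. The 26 include the 10 genes with a member, where the choice of members favours a shorter length in YAP. This count was not made over all protein-coding genes. In the urea cycle and amino acid list H3K4me2 was also shorter in YAP at 40 of 43 genes and longer at 3, and in the cell cycle list shorter at 13 of 30 and longer at 17. Cux2, a female-biased repressor, had 6.83 kb in YAP and 2.09 kb in WT, and Cd36, a fatty acid transporter, 10.9 kb in YAP and 2.23 kb in WT. Both H3K4me2 lists held regions on chromosome Y, 12 in YAP and 9 in WT. The labels do not give the sex of the mice, and whether it differed between the genotypes was not tested.

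Members near YAP target genes were 3 of 39 long regions (7.69%, 2.65 to 20.3), at Amotl1, a YAP-binding angiomotin relative (0.447 kb of H3K4me2 in YAP and 2.32 kb in WT), Rbms3 and Arhgef17. Of 29 target genes with listed H3K4me2, 22 had more covered bases in YAP and 7 had fewer, a count not made over all genes. Ccn1 and Ccn2 had no member, with 6.71 kb in YAP and 5.46 kb in WT at Ccn1 and 3.49 kb in YAP and 0.529 kb in WT at Ccn2. Polyamine and hypusination genes had 0 of 44 (upper bound 8.03%), among them Odc1, the ornithine decarboxylase gene, and genes of LSD1 complexes 1 of 37, at Gse1. Circadian clock genes had 1 of 61, at Rora. Kdm1a itself and Yap1 had none. As a check of the tissue, most hepatocyte genes set for it carried H3K4me2 in both genotypes. Alb had 5.56 kb in YAP and 6.45 kb in WT, and Apoa1 7.17 kb in YAP and 9.45 kb in WT. Serpina1b had 2.735 kb in YAP and 2.7 kb in WT, and Hnf4a 11.9 kb in YAP and 15.4 kb in WT. Ttr had 7.27 kb in YAP and 10.6 kb in WT, and Apob 6.39 kb in YAP and 11.4 kb in WT. Cps1 had 7.75 kb in YAP and 15.5 kb in WT, while Cyp2e1 had none listed in YAP and 8.14 kb in WT.

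Over whole genes LSD1 was more often listed at genes with members than at other genes. Of the 679 genes with a member within 5 kb, 118 (17.4%, 14.7 to 20.4) had an LSD1 region in YAP livers alone, 51 (7.51%) in WT livers alone, and 59 (8.69%) in livers of both genotypes. Among the 11930 genes with a long WT region and no member, the shares were 12.7%, 4.53% and 4.85%. The genes with members are longer, as given above, and the difference per length was not tested. Of the 11 genes of the urea cycle and amino acid list with a member, 4 had LSD1 in YAP only, against the 17.4% above. None had it in WT only or in both genotypes. Asl and Sds, the serine dehydratase gene, were among the 4, and Sds had no listed YAP H3K4me2. Cps1 had no LSD1 region in either genotype.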

How the data were processed

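ChIP-seq libraries of YAP and WT mouse livers (12 with antibody, 2 inputs) were made from chromatin cut with micrococcal nuclease, per the labels' protocols. The submitters' processing notes name deepTools 3.3.0, bedtools 2.26.0, Picard 1.126, SAMtools 1.7, Trimmomatic 0.39 and BWA, with mm10 as the build. What called the peaks, at which threshold and with or without the inputs is not given in the sources used here, and the depth of the libraries is unknown. The authors deposited 1 list of regions per antibody and genotype, 123145 regions in 6 lists, so that the lists' own replicate spread is unknown. Each deposited H3K4me1 and H3K4me2 region has a score, a fold-enrichment ratio, and −log10 p and −log10 q values computed by the authors, and of the deposited LSD1 lists the score and signal columns were used. The score column in the H3K4me2 lists is 10 times the −log10 p, rounded down.

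Regions on the 19 autosomes, X and Y were used. Overlap was at least 1 bp, overlapping LSD1 regions were joined, genes came from RefSeq (GRCm38.p6, 21883 protein-coding genes), and the flank of a gene was 5 kb. Genes with a member were named by rule: the 15 highest-scoring members, the 10 longest, the 10 genes with most members, up to 10 members with LSD1 per genotype, up to 4 genes per list by member bases, and a few fixed genes. Genes named beyond it (those without listed YAP H3K4me2, further list members, and marker genes without a member) were chosen after their values were seen. A few genes that the rule names are not reported here. The members, the lists and the rule were chosen with earlier results of these data known. The code for overlaps, covered bases and distances was tested on simulated regions and gave the right answer for 150 of 150 each. Computations used pandas 2.3.3, numpy 2.4.6 and matplotlib 3.10.9 under Python 3.11.15. Alternatives tried were other length and overlap limits, score limits, joined regions, gene definitions and LSD1 distances.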

Additional observations from a re-analysis of the deposited data

How the results depend on the processing

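No paired analysis was possible because each list stands for both replicates, which also means that no replicate could be left out. Of the main results under alternatives 58 values stayed within the 95% interval of the reported share, or within 1.5 times the reported number, and 37 moved. Of the 58, 6 come from the limit on the authors' q, which removed no region. The interval is wide for the share with LSD1 in WT, 1.56% as reported, which was 2.65% with a minimum of 1500 bp, 2.59% with WT regions joined and 2.64% with LSD1 within 1 kb. The number of regions was 2854 with a minimum length of 500 bp, 441 with 1000 bp, 151 with 1500 bp, 472 with no YAP region within 1 kb and 335 in the higher-scoring 50% of the WT list, and the number of genes was 2179, 363, 125, 341 and 259 under the same settings and 447 with no YAP region within 500 bp. The share at gene ends was 19.2% with a minimum of 1500 bp, 22.2% over all annotated genes, 9.36% and 21.4% with ends of 500 bp and 2 kb, and 33.3% at scores of 200 or more. The share with LSD1 in YAP was 0.662% with a minimum of 1500 bp, 0.684% and 0.424% with no YAP region within 500 bp and 1 kb, 2.39% in the higher-scoring 50%, 2.59% with WT regions joined, 3.12% and 10.1% with LSD1 within 1 kb and 5 kb, and 0% both at 2000 bp or longer and at scores of 200 or more. The share with LSD1 in WT was 6.72% within 5 kb, 4.76% at 2000 bp or longer, and 0.862%, 2.75% and 3.33% at scores 20 to 49, from 100 to under 200 and 200 or more. The share with H3K4me1 in WT was 10.9% and 17.9% with minimum lengths of 500 and 1500 bp, 10.1% in the higher-scoring 50%, 21.5% within 1 kb, and 19.2%, 8.26% and 3.33% at scores 50 to 99, from 100 to under 200 and 200 or more. The score classes were chosen after seeing the data, and the cause of these shifts was not tested. Endothelial genes with a member numbered 6 at 1000 bp, 1 at 1500 bp and 3 in the higher-scoring 50%, against 10 as reported. Hepatocyte transcription factor genes with a member numbered 15 at 500 bp, 4 at 1000 bp, 0 at 1500 bp, 3 with no YAP region within 1 kb and 1 in the higher-scoring 50%, against 7. Periportal genes numbered 6 at 1000 bp, 3 at 1500 bp, 7 with no YAP region within 1 kb, 5 in the higher-scoring 50% and 6 with WT regions joined, against 11. Male-biased genes numbered 6 at 1500 bp, against 10, and cell cycle genes 3 at 500 bp and 1 with a 20 kb flank, against 0. The WT-only state of a low region rests on the authors' limit in 2 libraries, whose depth is unknown.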

Other observations

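The microRNA genes Mir3073a and Mir3073b, on opposite strands at one place, lay inside a member of 1888 bp (chr12:112109083-112110970, score 126). Mir199a-2 lay 184 bases from a member of score 64, and Mir10a lay 1705 bases from one of score 71. Chromosome X held 950 H3K4me2 regions in YAP and 954 in WT.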
